A study of Homo sapiens with 12 samples.

Results

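Spliceosome core proteins were followed here through the genes of 4 name families and a single partner, across 3 cancer cell lines that had received microRNAs of the miR-200 family. The members are all genes on the array named SNRP, LSM, SF3A, SF3B or PRPF with the number or letter of a subunit, plus DNAJC8, which was added by name, and each was read from the brightest of the probe sets that name it alone. They came to 44 of the 19774 genes measured, and all but SNRPN had a mean above the background level on the set used. A brighter set naming SNRPN together with SNURF (mean 5.89, above background) was left out by this rule. Their levels, their changes from the control of the same line and the comparison of both clusters with single clusters were in view when they were chosen, so these values are given as a description.

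RNA from 3 established lines, HUTU-80, MDST8 and NCI-H716, was hybridised to 12 Affymetrix U133 Plus arrays. The labels call them colorectal cancer lines with methylated miR-200 loci. Cells received lentivirus for both clusters, for miR-200c141 alone (miR-200c and miR-141) or for miR-200ba429 alone (with miR-200a, miR-200b and miR-429), and each line has a control array. GFP-positive cells were sorted 48 hours after transduction, and RNA was taken on day 7. Cells for both clusters were miR-200ba429 cells given the miR-200c141 virus 24 hours after sorting. No second virus is listed for the other groups. The pair of clusters and the second virus therefore cannot be told apart, whether against control or against single clusters. There were 2 arrays with both clusters (MDST8 and NCI-H716), 4 with miR-200c141, 3 with miR-200ba429 and 3 controls. HUTU-80 had no array with both clusters but 2 with miR-200c141, whose titles end in 1:3 and 1:5 and which were averaged in the model, leaving 11 samples. The labels read here do not say what the control cells received or whether arrays came from separate cultures, so p-values measure only the spread between these arrays.

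The spliceosome removes introns from messenger RNA precursors and is assembled from small nuclear ribonucleoproteins (snRNPs), each a small RNA with its proteins. Sm proteins form a ring of subunits around the U1, U2, U4 and U5 RNAs, and a ring of LSM proteins sits on U6, while a related ring with LSM1 in place of LSM8 acts in the decay of messenger RNA. U1 marks the start of the intron, U2 with its SF3A and SF3B complexes marks the branch site, and the PRPF proteins mostly serve the tri-snRNP of U4, U6 and U5 and the activation that follows. DNAJC8 is a J domain protein, of the family of HSP70 partners, that has been found with the spliceosome.

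The family carried by the 2 constructs holds a pair of seeds, the bases at positions 2 to 8 that pair with target messenger RNAs, shown in capitals in the mature sequences of RefSeq (GRCh38.p14) because they say what the cells received. The miR-200c141 construct holds one microRNA of each seed, as does the miR-200ba429 construct with a further member of the first. The seed AAUACUG is shared by miR-200c, miR-200b and miR-429, and the seed AACACUG by miR-141 and miR-200a.
hsa-miR-200c-3p, chr12:6963742-6963764, strand +: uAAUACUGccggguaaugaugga
hsa-miR-200b-3p, chr1:1167160-1167181, strand +: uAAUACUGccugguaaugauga
hsa-miR-429, chr1:1169055-1169076, strand +: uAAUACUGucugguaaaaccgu
hsa-miR-141-3p, chr12:6964155-6964176, strand +: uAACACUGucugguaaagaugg
hsa-miR-200a-3p, chr1:1167916-1167937, strand +: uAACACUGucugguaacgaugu
The miR-200c and miR-141 genes lie on chromosome 12 and the other members of the family on chromosome 1.

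Values are log2 intensities, with array medians between 3.595 and 3.662, and the highest signal of 23 nonspecific control probe sets, 5.43, served as background. Of the 19774 genes, 9516 had a mean above it. Across genes, which are not independent replicates, the lowest correlation within a line was 0.978 and the highest between lines 0.885. The lines fitted their label only in part, since 5 or 6 of 7 intestinal epithelium markers lay above background on the NCI-H716 arrays and 0 of 7 on every HUTU-80 and MDST8 array. Leukocyte and endothelium markers lay at background throughout (0 of 3 each). Of 3 fibroblast genes, PDGFRB lay below background on every array. DCN was at 10.62 to 11.24 in HUTU-80, at 5.48 in the MDST8 control and at 2.997 to 3.36 on the remaining arrays. COL1A1 was at 5.44 to 6.82 in HUTU-80 and 11.31 to 11.83 in MDST8, and in NCI-H716 at 7.57 with both clusters, against 3.19 in the control. The summed level of these 3 genes with both clusters was 18.07 in MDST8 (20.01 in its control) and 14.22 in NCI-H716 (9.32 in its control). The excess of 3′ over 5′ signal, a sign of RNA quality, was the highest of its line on both arrays with both clusters. For ACTB it was 2.02 in MDST8 with both clusters, against at most 1.54 on the other arrays of that line, and 2.63 in NCI-H716 with both clusters, against at most 2.41. GAPDH gave 0.383 in MDST8 with both clusters (others up to 0.324) and 0.351 in NCI-H716 with both clusters (others up to 0.325). Of 4 simple epithelium markers, KRT18 was called higher with both clusters (1.475 ± 0.23), and the summed level with both clusters was 24.01 in MDST8 (21.17 in its control) and 44.45 in NCI-H716 (34.31 in its control). EPCAM and CDH1 stayed below background in MDST8, at 3.41 and 3.23 with both clusters and 3.52 and 3.14 in the control, while in NCI-H716 they were at 12.38 and 9.03 with both clusters and 9.29 and 4.01 in the control. With both clusters 11 of 30 cell cycle genes were called lower and 0 higher (median −0.52). Of all genes 3.81% were called lower and 2.33% higher, and of those above background 7.48% and 4.04%. These values stand beside every result with both clusters, and their part in it was not tested. In bulk samples fewer cells of a type and less RNA per cell cannot be told apart.

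With both clusters, DNAJC8 was the member with the largest fall and the small nuclear ribonucleoprotein genes SNRPB2, SNRPA and SNRPB fell with it, while PRPF38B and LSM1 rose. In MDST8, DNAJC8 stood at 8.81 with both clusters, 9.95 with miR-200c141, 10.22 with miR-200ba429 and 10.19 in the control. In NCI-H716 it stood at 8.59 with both clusters, 9.81 with miR-200c141, 10.37 with miR-200ba429 and 10.54 in the control. Both arrays with both clusters were more than 1 log2 unit below every other array of their line. In HUTU-80, which has no array with both clusters, DNAJC8 was at 10.38 and 10.49 with miR-200c141 (1:3 and 1:5), 10.44 with miR-200ba429 and 10.796 in the control. The fitted change with both clusters was −1.68 ± 0.14 on the log2 scale against control (SE, 2 samples against 3), a level 3.22-fold lower, and ranked 61st among the falls of 19774 genes. Its probe set carries the suffix x, given to sets that can also bind other transcripts. The other DNAJC8 probe sets stood lower with both clusters too. A second one had a mean change of −1.77 over both lines (−1.50 in MDST8 and −2.04 in NCI-H716), and another, with no such suffix, had −1.13 (−0.65 and −1.61).

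SNRPB2 encodes the U2 snRNP protein B″, which binds the U2 RNA together with the SNRPA1 protein. In MDST8 it was at 10.46 with both clusters, 11.25 with miR-200c141, 11.35 with miR-200ba429 and 11.25 in the control. In NCI-H716 the levels were 9.63 with both clusters, 10.46 with miR-200c141, 10.58 with miR-200ba429 and 10.71 in the control. The array with both clusters was the lowest of its line in each, and the arrays with single clusters lay from −0.25 to 0.10 of their control. HUTU-80 arrays read 10.88 and 10.81 with miR-200c141 (1:3 and 1:5), 10.89 with miR-200ba429 and 10.84 in the control. The fitted change with both clusters was −0.92 ± 0.09 (SE), ranking 465th among falls. A second SNRPB2 probe set had a mean of 3.92, below background. With the mean of both probe sets the change was −0.23 and did not pass the threshold.

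SNRPA, the U1 snRNP protein A that binds the U1 RNA, fell less. Its levels in MDST8 were 8.71 with both clusters, 9.32 with miR-200c141, 9.32 with miR-200ba429 and 9.32 in the control. In NCI-H716 they were 9.001 with both clusters, 9.34 with miR-200c141, 9.31 with miR-200ba429 and 9.34 in the control. The other arrays of these lines lay close together, and the array with both clusters lay below them in each line. In HUTU-80 it stood at 9.85 and 9.96 with miR-200c141 (1:3 and 1:5), 9.62 with miR-200ba429 and 10.06 in the control. The fitted change with both clusters was −0.54 ± 0.13.

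SNRPB encodes the Sm proteins B and B′ of the ring. In MDST8 it stood at 10.98 with both clusters, 11.18 with miR-200c141, 11.37 with miR-200ba429 and 11.32 in the control. NCI-H716 arrays gave 10.19 with both clusters, 10.56 with miR-200c141, 10.46 with miR-200ba429 and 10.83 in the control. In NCI-H716 both single clusters lay below the control as well, between it and the array with both clusters. HUTU-80 arrays gave 11.41 and 11.45 with miR-200c141 (1:3 and 1:5), 11.295 with miR-200ba429 and 11.51 in the control. The fitted change with both clusters was −0.48 ± 0.098. A second SNRPB probe set had a mean change of −0.53, close to the −0.48 of the one used. SNRPB and SNRPN encode close relatives, so probe sets for one may read the other.

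PRPF38B, a relative of the PRPF38A protein, was read from a probe set at 7.42 with both clusters, 7.07 with miR-200c141, 7.102 with miR-200ba429 and 6.86 in the control, all in MDST8. In NCI-H716 its levels were 8.93 with both clusters, 8.33 with miR-200c141, 8.85 with miR-200ba429 and 8.35 in the control. On that line the array with miR-200ba429 alone lay close below the one with both clusters. HUTU-80 gave 8.09 and 7.99 with miR-200c141 (1:3 and 1:5), 8.37 with miR-200ba429 and 7.93 in the control. The fitted change with both clusters was 0.58 ± 0.14. Another PRPF38B probe set of like mean had a change of −0.12, so the rise rests on the probe set used. With the mean of both probe sets the change was 0.22, which did not pass the threshold.

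LSM1, the subunit that sets apart the ring acting in messenger RNA decay, stood in MDST8 at 10.86 with both clusters, 10.61 with miR-200c141, 10.69 with miR-200ba429 and 10.48 in the control. In NCI-H716 it stood at 10.13 with both clusters, 9.88 with miR-200c141, 10.05 with miR-200ba429 and 9.87 in the control. In HUTU-80 it was at 10.57 and 10.48 with miR-200c141 (1:3 and 1:5), 10.66 with miR-200ba429 and 10.48 in the control. In MDST8 and NCI-H716 the array with both clusters was the highest, and the fitted change was 0.32 ± 0.08. LSM6, an LSM ring protein, had a larger change that did not pass the threshold, 0.48 ± 0.14, with 9.44 with both clusters, 9.05 with miR-200c141, 9.11 with miR-200ba429 and 8.68 in the control, all in MDST8. NCI-H716 arrays had 10 with both clusters, 10.103 with miR-200c141, 9.71 with miR-200ba429 and 9.71 in the control. In NCI-H716 the array with miR-200c141 was above the one with both clusters. HUTU-80 had 10.001 and 10.04 with miR-200c141 (1:3 and 1:5), 9.88 with miR-200ba429 and 9.88 in the control. PRPF40B stood at 0.46 ± 0.27 and did not pass either. Its levels straddled background, at 5.74 with both clusters, 6.005 with miR-200c141, 4.83 with miR-200ba429 and 5.22 in the control, all in MDST8. Its NCI-H716 levels were 5.38 with both clusters, 5.18 with miR-200c141, 4.63 with miR-200ba429 and 5.11 in the control. In HUTU-80 they were 5.86 and 6.02 with miR-200c141 (1:3 and 1:5), 5.86 with miR-200ba429 and 5.61 in the control.

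**Figure D1:**
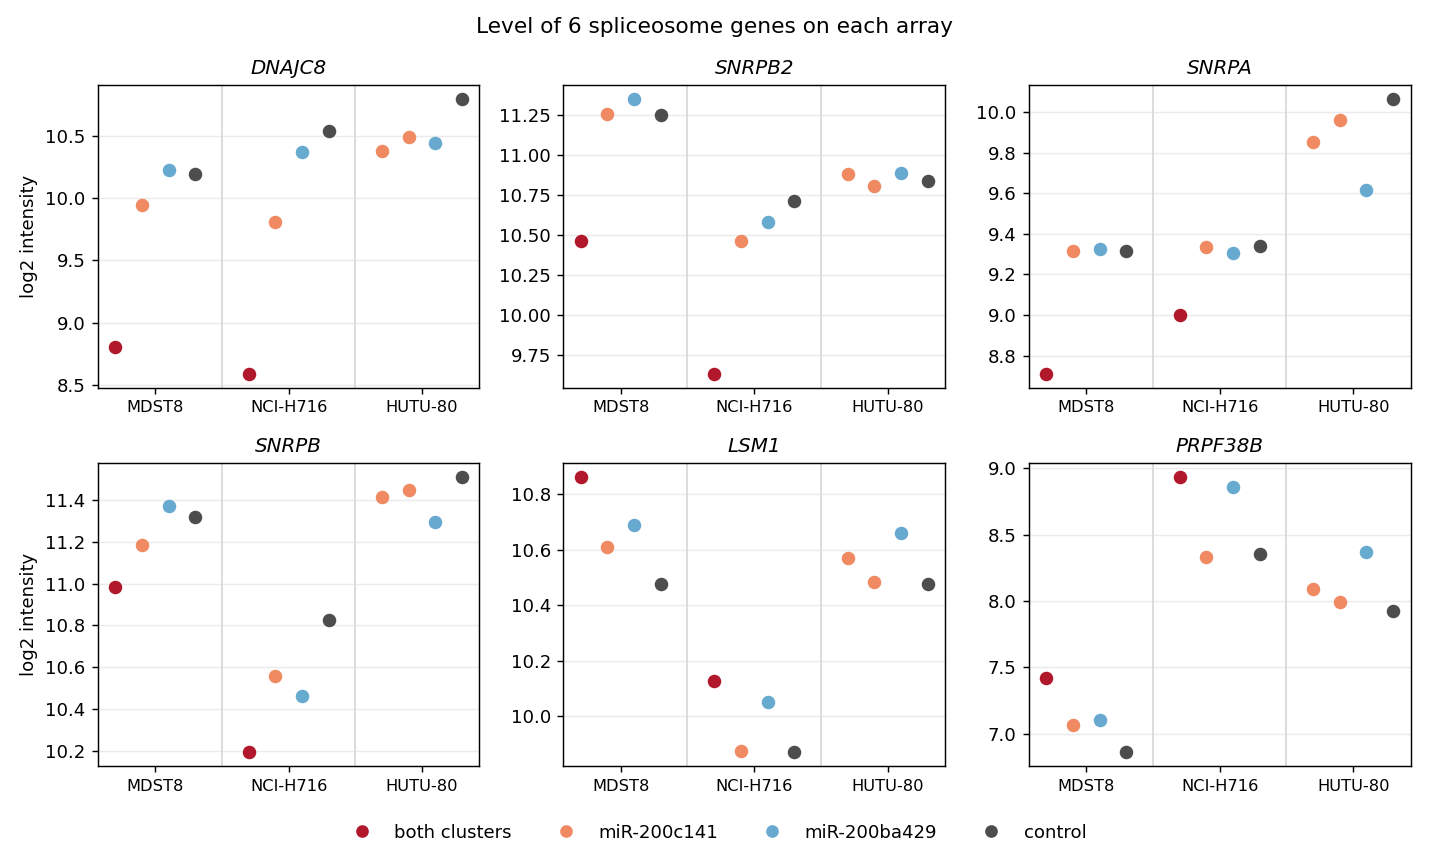
Level in log2 intensity (vertical axis, each panel with its own scale that does not start at 0) of the 6 spliceosome genes that passed the threshold with both clusters against control. Each point is 1 array, grouped by line and coloured by construct. DNAJC8 lies at 8.81 and 8.59 with both clusters and at 9.81 or above on every other array.

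Of the 44 members, 2 rose and 4 fell with both clusters at an adjusted p under 0.05 (limma, Benjamini-Hochberg over all 19774 genes), where 6.14% of all genes and 11.5% of genes above background were called. Their share was 13.6%. By direction, 2.33% of all genes and 4.04% of those above background rose, and 3.81% and 7.48% fell. The median change of the members was −0.09, against 0 for all genes, with −0.02 in MDST8 and −0.16 in NCI-H716 against the control of the line. This contrast was used in choosing the members. The calls of SNRPA, SNRPB, LSM1 and PRPF38B rest on few arrays. Without the NCI-H716 control, −0.61 for SNRPA, −0.39 for SNRPB, 0.35 for LSM1 and 0.58 for PRPF38B no longer passed. Without the MDST8 array with both clusters, the changes were −0.395 for SNRPA, −0.535 for SNRPB, 0.28 for LSM1 and 0.585 for PRPF38B. Without the NCI-H716 array with both clusters, they were −0.42 for SNRPB, 0.36 for LSM1 and 0.58 for PRPF38B. A single array with both clusters then remains, so no calls are read from these fits. Leaving out the HUTU-80 control (SNRPA −0.47, LSM1 0.32 and PRPF38B 0.57) or the MDST8 control (SNRPA −0.57, LSM1 0.285 and PRPF38B 0.59) ended the calls of those 3 genes. So did leaving out the NCI-H716 array with miR-200c141 (SNRPA −0.54, LSM1 0.315 and PRPF38B 0.57) or with miR-200ba429 (SNRPA −0.53, LSM1 0.32 and PRPF38B 0.59). Calls were also lost without the MDST8 array with miR-200c141 (SNRPA −0.54 and LSM1 0.32), without the MDST8 array with miR-200ba429 (LSM1 0.32) and without the HUTU-80 array with miR-200ba429 (LSM1 0.32 and PRPF38B 0.57). DNAJC8 and SNRPB2 kept their calls with each control or single cluster array left out in turn. These arrays were in view when the members were chosen, so this is a description and no separate support.

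The promoters of 4 genes are shown because these are the members that fell together with both clusters. The windows are the 250 bases before the start in RefSeq (GRCh38.p14), printed from the first to the last on the strand of the gene. Capitals mark any of 3 motifs, searched on both strands: CACGTG, an E-box; CACCTG, the E-box bound by ZEB factors; and CCGGAA, the core of sites for ETS factors. Only CCGGAA can overlap one of these, its own reverse complement.
DNAJC8, chr1:28233030-28233279, strand −: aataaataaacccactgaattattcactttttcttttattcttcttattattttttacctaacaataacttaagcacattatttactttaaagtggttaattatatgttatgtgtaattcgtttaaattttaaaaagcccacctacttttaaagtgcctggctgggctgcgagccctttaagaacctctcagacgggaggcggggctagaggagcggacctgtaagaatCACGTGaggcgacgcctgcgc
SNRPB2, chr20:16729776-16730025, strand +: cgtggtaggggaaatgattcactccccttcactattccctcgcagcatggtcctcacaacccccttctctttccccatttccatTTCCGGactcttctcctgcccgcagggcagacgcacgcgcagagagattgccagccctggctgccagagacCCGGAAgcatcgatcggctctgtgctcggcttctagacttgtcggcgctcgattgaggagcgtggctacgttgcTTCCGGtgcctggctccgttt
SNRPB, chr20:2470790-2471039, strand −: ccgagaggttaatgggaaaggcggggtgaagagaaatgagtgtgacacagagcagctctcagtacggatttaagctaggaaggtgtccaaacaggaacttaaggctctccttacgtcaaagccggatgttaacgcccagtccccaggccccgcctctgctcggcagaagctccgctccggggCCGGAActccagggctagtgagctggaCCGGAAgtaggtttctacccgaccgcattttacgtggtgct
SNRPA, chr19:40750953-40751202, strand +: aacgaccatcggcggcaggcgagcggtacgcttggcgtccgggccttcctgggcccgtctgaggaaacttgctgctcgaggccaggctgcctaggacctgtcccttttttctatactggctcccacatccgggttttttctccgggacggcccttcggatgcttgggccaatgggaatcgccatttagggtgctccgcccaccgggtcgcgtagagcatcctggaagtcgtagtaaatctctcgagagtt
The DNAJC8 window holds 1 CACGTG, the SNRPB2 window 3 CCGGAA and the SNRPB window 2, and these letters are not in the SNRPA window. Of the 44 members 38 had a window in the table. CCGGAA was in 22 of them (57.9%), against 32.9% of 7988 genes above background and 17.2% of all 27305 genes with a window. CACGTG was in 2 (5.26%, against 11.8% and 7.73%), and CACCTG in 8 (21.1%, against 19.4% and 20.6%). A match describes letters and is neither a site nor a cause.

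Within the roles, the U2 snRNP genes had 8 negative and 3 positive changes of 11 with both clusters (median −0.13). SF3A1, a subunit of the SF3A complex, stood at −0.36 ± 0.11, with 9.41 with both clusters, 9.74 with miR-200c141, 9.83 with miR-200ba429 and 9.98 in the control, all in MDST8. In NCI-H716 it read 8.94 with both clusters, 9.15 with miR-200c141, 9.16 with miR-200ba429 and 9.11 in the control. SF3B2, of the SF3B complex, stood at −0.38 ± 0.11. Its levels were 9.53 with both clusters, 9.76 with miR-200c141, 9.899 with miR-200ba429 and 9.92 in the control, all in MDST8. On the NCI-H716 arrays it had 8.74 with both clusters, 8.95 with miR-200c141, 8.82 with miR-200ba429 and 9.11 in the control. Both genes were lowest with both clusters in both lines but did not pass the threshold. SF3A3 (−0.36 ± 0.14) and SF3B3 (−0.28 ± 0.11) did not pass either. SF3B6, the SF3B subunit that contacts the branch site, was highest with both clusters in both lines, with a change of 0.25 ± 0.07 that did not pass. SF3B1, the large scaffold of SF3B, stood at −0.13 ± 0.09, and SNRPA1, the partner of SNRPB2, at 0.13 ± 0.12.

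The 8 Sm ring genes had a median change of −0.14 with both clusters. SNRPB was the one past the threshold. SNRPD2 stood at 12.36 with both clusters, 12.34 with miR-200c141, 12.38 with miR-200ba429 and 12.36 in the control, all in MDST8. The gene had 12.08 with both clusters, 12.21 with miR-200c141, 12.23 with miR-200ba429 and 12.27 in the control, all in NCI-H716. SNRPD3 was at 11.01 with both clusters, 10.74 with miR-200c141, 10.85 with miR-200ba429 and 10.85 in the control, all in MDST8, where the array with both clusters was the highest. In NCI-H716 it was the lowest, with 10.72 with both clusters, 10.93 with miR-200c141, 10.94 with miR-200ba429 and 10.93 in the control. SNRPE was lowest with both clusters in both lines, at 11.69 with both clusters, 11.699 with miR-200c141, 11.77 with miR-200ba429 and 11.8 in the control, all in MDST8. NCI-H716 arrays had 11.52 with both clusters, 11.74 with miR-200c141, 11.69 with miR-200ba429 and 11.71 in the control. SNRPF stood at 11.14 with both clusters, 11.18 with miR-200c141, 11.28 with miR-200ba429 and 11.12 in the control, all in MDST8. Its NCI-H716 levels were 11.37 with both clusters, 11.53 with miR-200c141, 11.41 with miR-200ba429 and 11.42 in the control. SNRPG was at 11.92 with both clusters, 11.86 with miR-200c141, 11.93 with miR-200ba429 and 11.92 in the control, all in MDST8. In NCI-H716 it read 12.17 with both clusters, 12.24 with miR-200c141, 12.18 with miR-200ba429 and 12.09 in the control. Neither SNRPF nor SNRPG had its array with both clusters at an end of the range in both lines. SNRPD1 was at 10.24 with both clusters, 10.195 with miR-200c141, 10.27 with miR-200ba429 and 10.32 in the control, all in MDST8. On the NCI-H716 arrays it had 10.28 with both clusters, 10.85 with miR-200c141, 10.61 with miR-200ba429 and 10.59 in the control, where both clusters gave the lowest value. On the probe sets used, the fitted changes of these 6 lay between −0.21 (SNRPD1) and 0.01 (SNRPG). Another SNRPD1 set, not among those that can bind other transcripts, changed by −1.02 in MDST8 and −1.265 in NCI-H716. In HUTU-80 SNRPD1 stood at 10.87 and 11.02 with miR-200c141 (1:3 and 1:5), 10.995 with miR-200ba429 and 10.996 in the control. SNRPD2 had 12.47 and 12.36 with miR-200c141 (1:3 and 1:5), 12.31 with miR-200ba429 and 12.395 in the control, and SNRPD3 had 11.53 and 11.52 with miR-200c141 (1:3 and 1:5), 11.53 with miR-200ba429 and 11.58 in the control. SNRPE was at 11.67 and 11.75 with miR-200c141 (1:3 and 1:5), 11.78 with miR-200ba429 and 11.89 in the control, where every construct lay below the control. SNRPF stood at 11.32 and 11.42 with miR-200c141 (1:3 and 1:5), 11.24 with miR-200ba429 and 11.43 in the control, and SNRPG at 12.04 and 12.17 with miR-200c141 (1:3 and 1:5), 12.11 with miR-200ba429 and 12.17 in the control. The largest change among these HUTU-80 values was −0.22, that of SNRPE (1:3).

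U1 snRNP genes other than SNRPA were split, with SNRPC, which helps U1 hold the start of the intron, at −0.08 ± 0.12 and PRPF39 at 0.26 ± 0.14. The LSM ring had 5 positive and 3 negative changes of 8 (median 0.05), from LSM2 at −0.19 ± 0.12 to LSM6. LSM2 was lowest with both clusters in both lines. LSM8, which defines the ring on U6, stood at −0.11 ± 0.13, with the array with both clusters the highest of its line in MDST8 and between the others in NCI-H716. LSM10 and LSM11, which replace Sm subunits in the U7 snRNP of histone messenger RNA processing, stood at 0.199 ± 0.14 and −0.16 ± 0.16. Among the tri-snRNP and later proteins, PRPF38B rose and the other 8 lay between −0.30 and 0.05. PRPF31, which bridges U4 to U5, was at −0.302 ± 0.12 and PRPF4, a U4 protein, at −0.25 ± 0.12, both lowest with both clusters in both lines. PRPF8, the large protein at the catalytic centre, was at −0.02 ± 0.11.

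**Figure D2:**
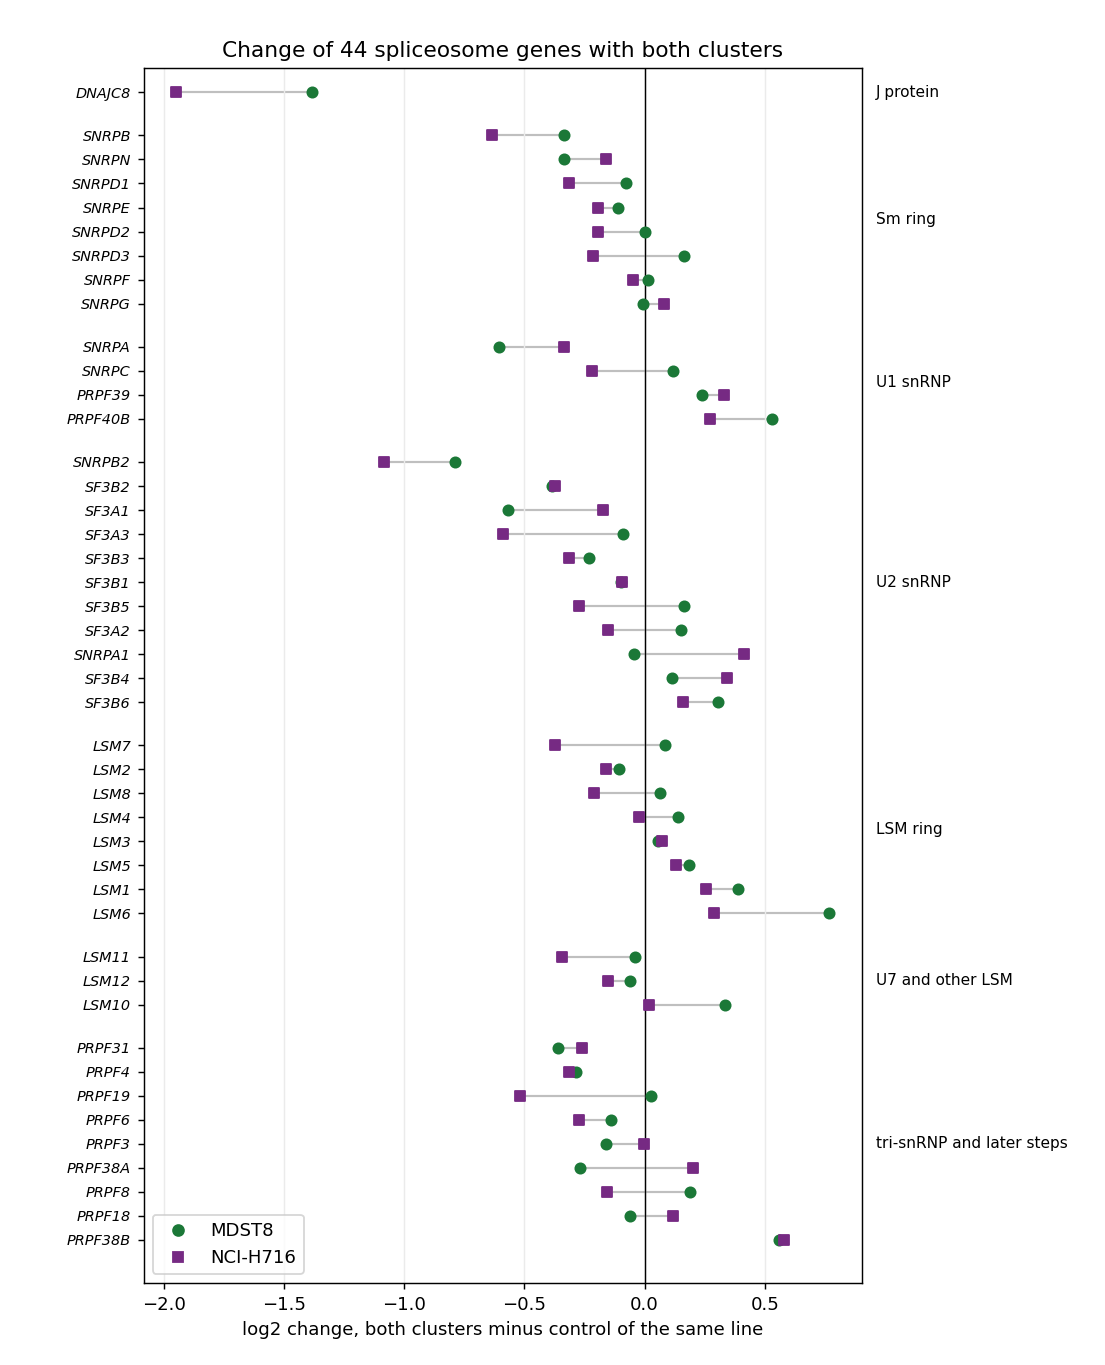
Change in log2 intensity with both clusters from the control of the same line (horizontal axis) for the 44 genes, grouped by role and sorted by mean change. Circles are MDST8 and squares NCI-H716, 1 array each against 1 control array. DNAJC8 stands apart at −1.39 and −1.95, followed by SNRPB2 at −0.79 and −1.09.

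The array with both clusters was the lowest of its line in both MDST8 and NCI-H716 for 12 members, where 13.8% of all genes and 20.6% of genes above background behave so. They are SNRPB, SNRPE, SNRPA, SNRPB2, SF3A1, SF3B2, SF3B3, LSM2, LSM12, PRPF4, PRPF31 and DNAJC8. It was the highest in both lines for 3 (SF3B6, LSM1 and PRPF38B), against 12.1% and 15.8%. The same control arrays serve the comparisons of single clusters.

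Against the single clusters, DNAJC8 (−1.38 ± 0.13) and SNRPB2 (−0.88 ± 0.08) were lower with both and passed the threshold, while 0 members were higher (limma). Only the cells with both have a second virus listed, which cannot be told apart from the second cluster. Of all genes 1.66% were called, and 3.31% of those above background, with 1.39% and 2.88% lower and 0.273% and 0.431% higher. The members had a median of −0.075, with 29 negative and 15 positive. Within the lines the difference was −1.28 in MDST8 and −1.50 in NCI-H716 for DNAJC8, and −0.84 and −0.895 for SNRPB2. Each lost its call under a different choice of probe sets, DNAJC8 at −0.86 without sets that can bind other transcripts and SNRPB2 at −0.32 with the mean of its sets. SNRPA (−0.43 ± 0.12) and SNRPB (−0.31 ± 0.09) did not pass. Without the NCI-H716 array with both clusters, which leaves a single array of that group, SNRPA was at −0.57. The largest positive differences were PRPF40B (0.37 ± 0.24), PRPF38B (0.33 ± 0.13) and LSM6 (0.25 ± 0.12).

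Neither single cluster gave a call among the members. With miR-200c141 alone, 0 of 44 members and 0% of all genes passed against control (limma). An unadjusted p under 0.05 was seen for 2 members and for 1302 of 19774 genes. DNAJC8 had the lowest value, −0.44 ± 0.12, and lay below the control on each of the 4 arrays, with changes of −0.421 (1:3) and −0.304 (1:5) in HUTU-80, −0.24 for the MDST8 array and −0.73 for that of NCI-H716. Next were SNRPB (−0.16 ± 0.08) and SF3B2 (−0.14 ± 0.09). The highest were PRPF40B (0.395 ± 0.23), LSM6 (0.303 ± 0.12) and PRPF38A (0.19 ± 0.13). With miR-200ba429 alone, 0 members and 0% of all genes passed, and 3 members and 1214 of 19774 genes had an unadjusted p under 0.05. PRPF38B (0.395 ± 0.12), PRPF39 (0.27 ± 0.12) and SF3B4 (0.25 ± 0.12) were highest and PRPF40B (−0.201 ± 0.23), LSM8 (−0.18 ± 0.11) and SF3B2 (−0.18 ± 0.09) lowest. PRPF39, a U1 partner, read 7.98 and 8.18 with miR-200c141 (1:3 and 1:5), 8.42 with miR-200ba429 and 8.13 in the control, all in HUTU-80. It read 7.45 with both clusters, 7.43 with miR-200c141, 7.53 with miR-200ba429 and 7.21 in the control, all in MDST8. The gene had 8.49 with both clusters, 8.34 with miR-200c141, 8.36 with miR-200ba429 and 8.16 in the control, all in NCI-H716, so every array with a single cluster but the 1:3 array lay above its control. SF3B4, of the SF3B complex, had 8.94 and 9.099 with miR-200c141 (1:3 and 1:5), 9.06 with miR-200ba429 and 8.895 in the control, all in HUTU-80. It had 9.23 with both clusters, 8.89 with miR-200c141, 9.33 with miR-200ba429 and 9.11 in the control, all in MDST8. NCI-H716 arrays had 8.46 with both clusters, 8.44 with miR-200c141, 8.48 with miR-200ba429 and 8.12 in the control, with miR-200ba429 above the control in all 3 lines. DNAJC8 stood at −0.16 ± 0.12. The members' medians were −0.01 in each case.

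The clusters were then set against each other, a contrast that was not used in choosing the members. Between miR-200c141 and miR-200ba429, 0 of 44 members and 0 of 19774 genes differed (0% called, smallest adjusted p of 1 in limma), with 3 members and 705 genes at an unadjusted p under 0.05. DNAJC8 stood at −0.28 ± 0.12, with a 95% interval from −0.55 to −0.01. PRPF38B stood at −0.295 ± 0.12 (−0.57 to −0.02) and PRPF40B at 0.596 ± 0.23 (0.09 to 1.11). Their intervals leave out 0 before adjustment. Next came SF3B4 at −0.17 ± 0.12, LSM6 at 0.16 ± 0.12 and LSM2 at 0.14 ± 0.11. LSM2 had 10.04 and 9.94 with miR-200c141 (1:3 and 1:5), 9.66 with miR-200ba429 and 9.998 in the control, all in HUTU-80. It had 9.06 with both clusters, 9.31 with miR-200c141, 9.39 with miR-200ba429 and 9.16 in the control, all in MDST8. Its NCI-H716 levels were 9.395 with both clusters, 9.65 with miR-200c141, 9.48 with miR-200ba429 and 9.56 in the control, with miR-200c141 above miR-200ba429 in HUTU-80 and NCI-H716 and below it in MDST8. For SNRPB2 the difference was −0.09 ± 0.08 (−0.25 to 0.08), for SNRPB 0.01 ± 0.08 (−0.17 to 0.20) and for SNRPA 0.104 ± 0.11 (−0.14 to 0.35). The misses do not show that the clusters act alike.

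Probe sets of a member did not always move together. The members have 93 probe sets naming them alone, and 26 sets other than the one used lay above background, in 18 genes. Of these, 5 were over 0.5 lower and 2 over 0.5 higher in their change with both clusters than the set used. Another SNRPD1 set, a ring gene, had −1.14, against −0.195 in the set used. PRPF38A had −0.73, against −0.03, and LSM8 had −0.765, against −0.07. LSM5 had −0.51, against 0.16. Another SNRPA1 set had 0.80, against 0.185. Which set reads the full message was not tested.

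**Figure D3:**
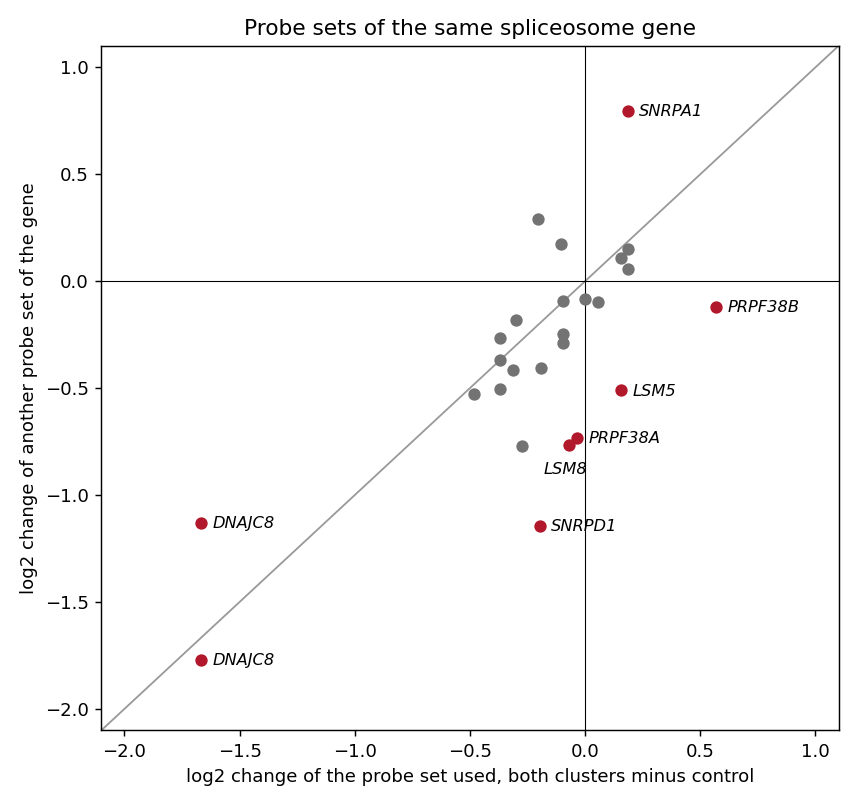
Mean log2 change over MDST8 and NCI-H716 with both clusters minus control, for the probe set used (horizontal axis) and for another set of the same gene above background (vertical axis). Each of the 26 points is 1 such set, the line marks equal change, and named points differ by over 0.5 or belong to DNAJC8. Both DNAJC8 points lie at −1.13 or lower.

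The largest differences among members lay between the lines. Here the arrays of a line with different constructs served as the spread, and each line is a single cell line. HUTU-80 had the highest mean of the 3 lines for 27 of 44 members (61.4%), against 37.1% of genes above background, and the highest control for 29 (65.9%, against 36.5%). Against MDST8, 27 members were higher in HUTU-80 and 7 lower at an adjusted p under 0.05 (limma), a share of 77.3%, where 43.3% of all genes (22.9% higher and 20.5% lower) and 64.6% of those above background (35.1% and 29.5%) were called. Against NCI-H716, 25 were higher in HUTU-80 and 5 lower, a share of 68.2%, beside 45.6% of all genes (25.1% higher and 20.5% lower) and 68.2% of those above background (39.1% and 29.1%). Between MDST8 and NCI-H716, 10 were higher in MDST8 and 18 lower, a share of 63.6%, beside 51.7% of all genes (26.4% higher and 25.3% lower) and 74% of those above background (38.3% and 35.6%). In shares by direction, 61.4% of members were higher in HUTU-80 than in MDST8, 56.8% higher in HUTU-80 than in NCI-H716 and 40.9% lower in MDST8 than in NCI-H716.

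SNRPN, the brain-rich relative of SNRPB that is imprinted in normal tissues, had the widest range, 4.02 log2 units over the 12 arrays. HUTU-80 arrays read 3.26 and 3.34 with miR-200c141 (1:3 and 1:5), 3.26 with miR-200ba429 and 3.14 in the control. MDST8 arrays read 6.41 with both clusters, 6.75 with miR-200c141, 6.65 with miR-200ba429 and 6.75 in the control. The NCI-H716 levels were 2.86 with both clusters, 3.01 with miR-200c141, 2.73 with miR-200ba429 and 3.02 in the control. MDST8 was above background and the other lines below it on every array, so background limits the size of the difference. It was −3.45 ± 0.17 (adjusted p = 2.21e-08) for HUTU-80 against MDST8 and 3.73 ± 0.15 (adjusted p = 2.93e-09) for MDST8 against NCI-H716. With the mean of its 10 probe sets, all with a mean below background, it was −0.94 and 0.97 and still passed.

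PRPF38A, a protein needed for activation of the spliceosome, was low in MDST8. It stood in HUTU-80 at 9.42 and 9.39 with miR-200c141 (1:3 and 1:5), 9.57 with miR-200ba429 and 9.203 in the control. In MDST8 it was at 7.39 with both clusters, 7.78 with miR-200c141, 7.63 with miR-200ba429 and 7.66 in the control, and in NCI-H716 at 9.36 with both clusters, 9.42 with miR-200c141, 9.16 with miR-200ba429 and 9.16 in the control. On the probe set used, no MDST8 array overlapped the other lines. On another PRPF38A set MDST8 and NCI-H716 overlapped, at 6.47 to 7.18 in MDST8 and 7.105 to 7.95 in NCI-H716. That set was at 8.80 to 8.90 in HUTU-80. On the set used, the difference was 1.76 ± 0.12 (adjusted p = 4.15e-07) for HUTU-80 against MDST8 and −1.66 ± 0.11 (adjusted p = 1.64e-07) for MDST8 against NCI-H716. The levels of PRPF38B given above ran the same way, with differences of 1.103 ± 0.12 (adjusted p = 1.51e-05) and −1.51 ± 0.11 (adjusted p = 2.76e-07) in the same pairs. On the probe set used it was lower in HUTU-80 than in NCI-H716 (−0.402 ± 0.12). On its other set these lines overlapped, at 8.12 to 8.29 in HUTU-80 and 8.14 to 8.42 in NCI-H716. That set was at 7.20 to 7.63 in MDST8. SNRPA1 was also low in MDST8, with 10.29 with both clusters, 10.18 with miR-200c141, 10.42 with miR-200ba429 and 10.33 in the control, while HUTU-80 had 10.97 and 11.305 with miR-200c141 (1:3 and 1:5), 11.27 with miR-200ba429 and 11.28 in the control. NCI-H716 arrays had 11.55 with both clusters, 11.57 with miR-200c141, 11.38 with miR-200ba429 and 11.14 in the control, and MDST8 differed from NCI-H716 by −1.11 ± 0.09 (adjusted p = 1.11e-06). That difference was −2.26 without probe sets that can bind other transcripts. This left a dimmer set with a mean of 6.05. It lay at 4.57 to 5.21 on the MDST8 arrays, below background, which limits what that value can say.

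PRPF19, the ubiquitin ligase at the head of the complex that activates the spliceosome, was low in NCI-H716. HUTU-80 gave 10.44 and 10.37 with miR-200c141 (1:3 and 1:5), 10.39 with miR-200ba429 and 10.38 in the control, and MDST8 gave 10.63 with both clusters, 10.7 with miR-200c141, 10.62 with miR-200ba429 and 10.61 in the control. In NCI-H716 the levels were 8.897 with both clusters, 9.3 with miR-200c141, 9.05 with miR-200ba429 and 9.41 in the control. All 4 arrays of NCI-H716 lay below every other array. The difference from NCI-H716 was 1.18 ± 0.1 (adjusted p = 1.57e-06) for HUTU-80 and 1.48 ± 0.09 (adjusted p = 7.05e-08) for MDST8.

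The SF3A1 levels given above for MDST8 and NCI-H716 compare with 10.29 and 10.16 with miR-200c141 (1:3 and 1:5), 10.24 with miR-200ba429 and 10.25 in the control, all in HUTU-80, and HUTU-80 exceeded NCI-H716 by 1.07 ± 0.09 (adjusted p = 1.31e-06). SF3A2, its partner in the SF3A complex, had 8.68 and 8.47 with miR-200c141 (1:3 and 1:5), 8.36 with miR-200ba429 and 8.53 in the control, all in HUTU-80. It had 7.83 with both clusters, 7.53 with miR-200c141, 7.86 with miR-200ba429 and 7.68 in the control, all in MDST8. In NCI-H716 it read 7.47 with both clusters, 7.704 with miR-200c141, 7.703 with miR-200ba429 and 7.63 in the control. HUTU-80 exceeded NCI-H716 by 0.85 ± 0.14 (adjusted p = 0.000267), with no overlap between their arrays. SF3B2, with 9.69 and 9.51 with miR-200c141 (1:3 and 1:5), 9.46 with miR-200ba429 and 9.701 in the control, all in HUTU-80, was higher in MDST8 than in NCI-H716 by 0.87 ± 0.08 (adjusted p = 2.15e-06). With the mean of its probe sets this difference was 0.396 and still passed. SF3B3, another SF3B subunit, had 9.27 and 9.21 with miR-200c141 (1:3 and 1:5), 9.17 with miR-200ba429 and 9.303 in the control, all in HUTU-80. MDST8 arrays had 8.05 with both clusters, 8.29 with miR-200c141, 8.24 with miR-200ba429 and 8.28 in the control, below every array of the other lines. NCI-H716 had 8.696 with both clusters, 8.88 with miR-200c141, 8.81 with miR-200ba429 and 9.01 in the control. HUTU-80 exceeded MDST8 by 0.97 ± 0.09 (adjusted p = 4.46e-06), and by 0.34, which did not pass, when probe sets that can bind other transcripts were left out. The set left was dimmer, with a mean of 6.045. It lay at 5.35 to 6.34 on the MDST8 arrays, near background, which limits what the value of 0.34 can say.

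PRPF4 stood at 9.82 and 9.69 with miR-200c141 (1:3 and 1:5), 9.64 with miR-200ba429 and 9.58 in the control, all in HUTU-80, and at 9.36 with both clusters, 9.47 with miR-200c141, 9.66 with miR-200ba429 and 9.64 in the control, all in MDST8. In NCI-H716 it had 8.58 with both clusters, 8.88 with miR-200c141, 8.71 with miR-200ba429 and 8.89 in the control, below all other arrays, and MDST8 exceeded NCI-H716 by 0.77 ± 0.09 (adjusted p = 1.36e-05). Members lower in HUTU-80 included PRPF6, a tri-snRNP protein that bridges its parts, with 8.35 and 8.199 with miR-200c141 (1:3 and 1:5), 8.08 with miR-200ba429 and 8.27 in the control. MDST8 had 8.5 with both clusters, 8.45 with miR-200c141, 8.59 with miR-200ba429 and 8.64 in the control, and NCI-H716 had 8.79 with both clusters, 9.02 with miR-200c141, 8.895 with miR-200ba429 and 9.06 in the control. The lines did not overlap, and HUTU-80 differed from NCI-H716 by −0.77 ± 0.103 (adjusted p = 6.77e-05) and from MDST8 by −0.37 ± 0.103 (adjusted p = 0.0115). The difference from MDST8 was not called without the HUTU-80 array with miR-200ba429 (−0.32) or with the mean of the probe sets (−0.315).

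LSM5, of the LSM rings, stood at 10.99 and 11.27 with miR-200c141 (1:3 and 1:5), 11.22 with miR-200ba429 and 11.07 in the control, all in HUTU-80. In MDST8 it had 11.498 with both clusters, 11.32 with miR-200c141, 11.41 with miR-200ba429 and 11.31 in the control, and in NCI-H716 11.91 with both clusters, 12.003 with miR-200c141, 11.87 with miR-200ba429 and 11.78 in the control, above every other array. HUTU-80 differed from NCI-H716 by −0.73 ± 0.06 (adjusted p = 2.15e-06). PRPF18, a factor of the second step of splicing, had 7.804 and 7.84 with miR-200c141 (1:3 and 1:5), 7.96 with miR-200ba429 and 7.74 in the control, all in HUTU-80. MDST8 had 7.86 with both clusters, 7.93 with miR-200c141, 8.05 with miR-200ba429 and 7.92 in the control, and NCI-H716 had 8.602 with both clusters, 8.54 with miR-200c141, 8.56 with miR-200ba429 and 8.49 in the control. Its NCI-H716 arrays were again the highest, and HUTU-80 differed from them by −0.71 ± 0.11 (adjusted p = 0.000168). LSM8 stood at 9.17 and 9.34 with miR-200c141 (1:3 and 1:5), 9.06 with miR-200ba429 and 9.38 in the control, all in HUTU-80. In MDST8 it had 9.995 with both clusters, 9.78 with miR-200c141, 9.93 with miR-200ba429 and 9.93 in the control, and in NCI-H716 9.61 with both clusters, 9.94 with miR-200c141, 9.58 with miR-200ba429 and 9.82 in the control. HUTU-80 lay below both other lines and differed from MDST8 by −0.68 ± 0.11 (adjusted p = 0.000298). SNRPB2 was lower in HUTU-80 than in MDST8 by −0.45 ± 0.07 (adjusted p = 0.000367), with the MDST8 array with both clusters the exception among the arrays. DNAJC8 was higher in HUTU-80 than in MDST8 (0.39 ± 0.12) and NCI-H716 (0.36 ± 0.12), and MDST8 differed from NCI-H716 by −0.03 ± 0.11, with an interval from −0.27 to 0.20 that holds 0.

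Over the 12 arrays, the range of a member had a median of 0.99 and was smallest for LSM4 (0.34). It was under 0.5 for 7 members and over 1 for 20. All 3 line pairs were called for 11 members (25%, against 33.5% of genes above background) and none for 2, LSM4 and SNRPE (4.55%, against 9.37%).

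**Figure D4:**
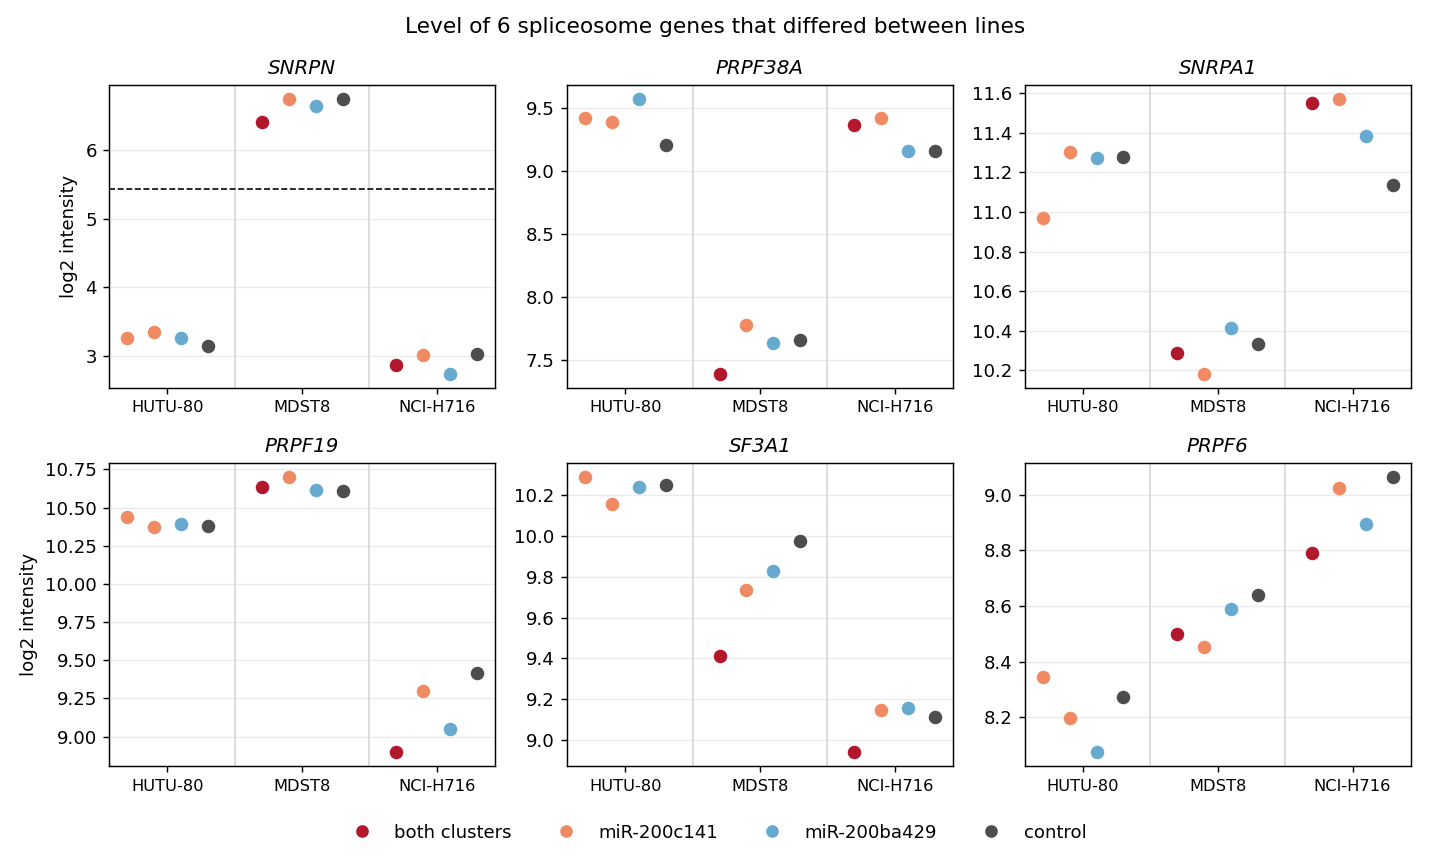
Level in log2 intensity (vertical axis, each panel with its own scale that does not start at 0) of 6 spliceosome genes that differed between lines. Each point is 1 array, grouped by line and coloured by construct, and the dashed line in the SNRPN panel is the background level of 5.43. SNRPN lies above it on the 4 MDST8 arrays and below it on the other 8.

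Other lists of the splicing machinery are given beside the 6.14% of all genes and 11.5% of genes above background called with both clusters. Of 12 U2 snRNP partners 2 fell (median −0.075), HTATSF1 (−0.59 ± 0.11), a factor that binds SF3B1, and U2AF1 (−0.52 ± 0.08), the subunit that reads the end of the intron. None of 6 further U1 snRNP proteins (median −0.15) or 13 U5 and tri-snRNP partners (−0.19) passed the threshold by limma. Nor did any of 17 measured PRP19 complex proteins (0.00) or 6 measured second step factors (−0.20). At an unadjusted p under 0.05 these lists had, in that order, 0, 6, 1 and 3 genes. In the same contrast 4352 of all 19774 genes and 3222 of the 9516 above background had such a p. Among 8 measured exon junction complex genes EIF4A3, its anchor, fell (−0.42 ± 0.10), and among 8 of the minor spliceosome RNPC3 fell (−0.69 ± 0.16). Of 18 measured genes that build snRNPs 3 fell, among them GEMIN5, which recognises the small RNAs (−0.85 ± 0.14), NCBP2, a subunit of the cap-binding complex (−0.97 ± 0.15), and COPRS (−0.44 ± 0.10). These lists were drawn up with earlier results known, and the median of all genes was 0.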

How the data were processed

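Affymetrix U133 Plus arrays were read from the log2 intensities that the authors deposited, made with RMA per the submitters' processing notes, and 0 deposited value columns were left without a sample. Of 54715 probe sets, 40914 named 1 gene in GEO's platform annotation, 864 named several, 12835 named none and 102 were controls. Entrez identifiers matched the RefSeq gene table for 40858 of them and changed 0 symbols. Each of 19774 genes was read from its probe set of highest mean over all arrays.

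Models were fitted over all genes with limma 3.58.1 in R 4.3.3 (group and cell line as terms, variance trend, 5 residual degrees of freedom), with Benjamini-Hochberg adjustment over all genes and a threshold of 0.05. The line as a block comes from the labels, since each single construct was put into the same lines. Both clusters together are missing from HUTU-80, so the block is incomplete for that group. The miR-200c141 arrays of HUTU-80 entered as their mean, since both are titled with the same line and construct, and they correlated at 0.9952. Intervals are at 95%. Precision is set by how many arrays there are. The fit was also run on simulated data with independent normal noise at the variances it had estimated. Such data meet its assumptions, so the run checks the computation and not the assumptions.

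The members and all gene lists were chosen with earlier results of these data known. Values per array are given for Sm ring genes, DNAJC8, members past the threshold with both clusters and, among members above background, the 3 largest rises and falls in each contrast. Up to 3 called genes each way are named from the other lists. Alternatives were another probe set rule, filters, scalings, variance settings, designs and leaving out lines or arrays. A line named in the labels' protocols, SW620, was not analysed here.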

Additional observations from a re-analysis of the deposited data

Results flagged for a closer look

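For 7 members every array with a construct lay above the control in one line and below it in another, a share of 15.9%, where 24.3% of all genes and 21% of genes above background did so. These sign patterns were not tested one by one. For a difference between lines in the construct effect, limma called 0 of 44 members (smallest adjusted p of 1) and 1 of 19774 genes. At an unadjusted p under 0.05 were 0 members and 987 genes. The test pooled all constructs against control, and both clusters are missing from HUTU-80. It therefore does not show that the lines respond alike to each construct. LSM11, of the U7 snRNP, had changes of 0.035 to 0.204 in HUTU-80 and −0.375 to −0.241 in NCI-H716, a gap of 0.276 between the nearest arrays. PRPF19 stood at 0.012 to 0.094 in MDST8 and −0.517 to −0.114 in NCI-H716 (gap 0.127), and PRPF4 at 0.055 to 0.237 in HUTU-80 and −0.313 to −0.013 in NCI-H716 (gap 0.068). PRPF8 had 0.067 to 0.19 in MDST8 and −0.164 to −0.056 in HUTU-80 (gap 0.123). SNRPF had 0.012 to 0.157 in MDST8 and −0.194 to −0.011 in HUTU-80 (gap 0.023), and SNRPG had 0.081 to 0.144 in NCI-H716 and −0.137 to −0.006 in HUTU-80 (gap 0.087). SNRPN had 0.11 to 0.193 in HUTU-80 and −0.294 to −0.012 in NCI-H716 (gap 0.123), with both lines below background.

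A pair of probe sets was left out because each names 2 genes, SNURF and SNRPN. They were far brighter in MDST8 than elsewhere, as the SNRPN set used was. One lay at 10.331 to 10.741 on the MDST8 arrays and at 3.133 to 3.839 on the others, a gap of 6.492. The other lay at 8.423 to 9.066 in MDST8 and at 2.746 to 3.272 on the others, a gap of 5.151. No group had 4 samples after averaging, so single arrays were not checked for outlying values.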

How the results depend on the processing

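Without the cell line as a replicate block, 0 members passed with both clusters against control and 0 against single clusters. Of all genes 0 passed in either comparison. DNAJC8 was then at −1.81 (adjusted p = 0.253) and SNRPB2 at −0.89 (adjusted p = 0.999). The count against control was 10 with only genes above background (16.4% of those genes called). It was 2 with no variance trend (3.43% of all genes), 1 with only the groups compared (0.0961%) and 2 without HUTU-80 (1.83%). The main fit called 6.14% of all genes. With each control or single cluster array left out, it ran from 2 to 6 (1.9% to 5.83% of all genes). Against single clusters it was then 2 each time (0.582% to 1.61%). The median change without MDST8 was −0.197 for both clusters and −0.064 for miR-200ba429. Medians with each array left out ran from −0.172 to −0.031 for both clusters, −0.039 to 0.037 for miR-200c141 and 0.291 to 0.401 for HUTU-80 against MDST8. DNAJC8 lost its call against control under 1 of 25 alternatives, all run on the arrays in view when the members were chosen. SNRPB2 failed under 3, which were no block, the mean of its probe sets (adjusted p = 0.277) and only the groups compared (adjusted p = 0.0708). Against single clusters, DNAJC8 without shared probe sets was −0.86 (adjusted p = 0.0544), and SNRPB2 by the mean of its probe sets was −0.32 (adjusted p = 0.177). Over all alternatives of the named genes, 1148 values kept direction and call, 64 lost a call and 4 gained one. The other 2, both without a call in either setting, changed sign with the mean of all probe sets, PRPF38A with miR-200c141 (−0.01, against 0.19) and SF3B2 with miR-200ba429 (0.02, against −0.18). The cause was not tested. The test of a difference between lines was not run with no trend, robust variances, no block or only the groups compared, and could not be fitted without a control array.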

Other observations

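Calls for RNA-binding proteins outside the core stand beside the 3.81% of all genes that fell and 2.33% that rose with both clusters (7.48% and 4.04% of those above background). Of 26 hnRNP genes, whose proteins coat the precursor RNA, 6 fell and 0 rose against control (median −0.237), including HNRNPH3 (−0.645 ± 0.15), HNRNPD (−0.505 ± 0.11) and HNRNPU (−0.38 ± 0.08). Of 22 SR genes and partners 2 fell, CLK2 (−0.805 ± 0.17), a kinase of SR proteins, and TRA2B (−0.42 ± 0.10), while SRRM2 rose (0.64 ± 0.15). Of 11 genes of decapping and decay that work with the LSM1 ring, 3 fell (median −0.238), DCP2, the decapping enzyme (−1.11 ± 0.28), PATL1 (−0.45 ± 0.10) and LSM14A (−0.44 ± 0.09). Of 8 histone mRNA processing genes CPSF3, the cleavage enzyme, fell (−0.42 ± 0.11).

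Among 35 J domain genes other than DNAJC8, 2 fell, DNAJC18 (−0.93 ± 0.21) and DNAJC24 (−0.80 ± 0.14), and 2 rose, DNAJC1 (0.98 ± 0.15) and DNAJB4 (1.35 ± 0.19), with a median of −0.053. The cell cycle genes that fell included MCM2 of the replication helicase (−1.12 ± 0.21) and the mitotic kinases BUB1B (−1.035 ± 0.18) and PLK1 (−1.02 ± 0.25). Of all genes 6.14% were called in this comparison.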
